A study of Mus musculus with 20 samples.

Results

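The genes described here encode the subunits of the NMDA receptor, a glutamate-gated calcium channel of excitatory synapses, together with serine racemase and the alpha7 nicotinic acetylcholine receptor. They were chosen by name, the receptor genes as targets of the tryptophan metabolites kynurenic acid and quinolinic acid and the enzyme gene *Srr* beside them. The receptor genes are the obligatory subunit *Grin1*, the GluN2 subunits *Grin2a*, *Grin2b*, *Grin2c* and *Grin2d*, the GluN3 subunit *Grin3a* and the nicotinic subunit *Chrna7*. All 8 were in the table, out of 17211 genes. An NMDA receptor pairs the GluN1 subunit, which binds glycine or D-serine, with GluN2 subunits, which bind glutamate, or with GluN3 subunits, which bind glycine. Kynurenic acid blocks the receptor at the glycine site and has also been described as acting on alpha7 nicotinic receptors, and quinolinic acid is an agonist at the glutamate site. Serine racemase makes the co-agonist D-serine in the brain.

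Brain RNA came from *Winnie* mice, a strain with a missense mutation in the mucin gene *Muc2* and spontaneous colitis, and from C57BL/6 mice. Both were 14 weeks old and from 1 breeding colony, none was treated, and the labels name 10 brains of each genotype, 5 female and 5 male. The study's text gives its brain comparison a smaller number of mice without naming them, so all 20 brains were used. The labels do not name a brain region, so that a smaller number of cells of a type and less RNA per cell cannot be told apart.

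Total reads per brain ranged from 16540303 to 23923769, the lowest correlation between any pair of brains was r = 0.989 across genes, and mitochondrial genes held 5.96% to 10.8% of the reads. Library numbers in the labels run through the C57BL/6 brains first and the *Winnie* brains after them, so library order and genotype cannot be told apart. *Xist* and *Ddx3y*, which are expressed from the inactive X and from the Y chromosome, went against the labelled sex in 9 C57BL/6 brains and in 0 *Winnie* brains, so females and males were compared only within *Winnie*, and labelled sex entered the comparison of genotypes as a covariate in 1 alternative. Neuron, astrocyte, oligodendrocyte and forebrain markers were present in every brain. CPM is a gene's reads scaled to a common total of the listed genes in each brain. The 12 markers of the cerebellum had medians from 0.465 CPM for *Gabra6* to 57.4 CPM for *Zic1*. *Pcp2* and *Fat2* were also low, with medians of 0.529 and 0.734 CPM, and *Gabra6* and *Pcp2* were at 0 in 1 and 2 brains. The summed level of the 12 ranged from 121 to 230 CPM in C57BL/6 and from 147 to 203 CPM in *Winnie* brains. This sum mainly follows *Zic1*, *Cbln1* and *Zic2*, which had the highest medians. The summed level of 10 striatal markers ranged from 376 to 1297 CPM in C57BL/6 and from 364 to 1275 CPM in *Winnie* brains.

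The NMDA receptor genes are relatives, so the coding stretch most alike in 5 of them is shown to compare them and to see whether reads could be shared. Windows of 30 bases were taken in frame, codon by codon, from each gene's transcript with the longest coding sequence. Among these, the one of *Grin1* with the best match in the other 4 lies in the third membrane segment, in the motif that forms the channel gate. The stretches are given 5′ to 3′ along the gene's minus strand on GRCm38, all in coding exons, with capitals marking the bases unlike *Grin1*.
*Grin1*, chr2:25297193-25297222, exon 15: tacactgccaacctggcagccttcctggtg
*Grin2a*, chr16:9653441-9653470, exon 8: tacacAgccaacctggcTgccttcAtgAtC
*Grin2b*, chr6:135772238-135772267, exon 10: tacactgccaacTtAgcCgccttcAtgAtC
*Grin2c*, chr11:115253743-115253772, exon 9: tacacGgccaaTctggcagccttcAtgAtC
*Grin3a*, chr4:49770464-49770493, exon 3: tacacAgcGaacTtggcTgcTGtcAtggtA
The GluN2 stretches shown differed from *Grin1* at 5 or 6 of the 30 bases and *Grin3a* at 8, and each differed from *Grin1* in 2 of the 10 amino acids encoded. Among the 28 pairs of the 8 genes the longest run of identical bases in annotated transcripts was 34 bases, between *Grin2b* and *Grin2c*, against reads of 100 bases. No run of a full read length was thus identical in 2 of these genes.

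The genes lie on 6 chromosomes of GRCm38, all on the minus strand. *Grin1* spans chr2:25291181-25319187 with 9700 exonic bases, and *Chrna7* spans chr7:63098692-63212569 with 4505 exonic bases. *Grin2a* (chr16:9567898-9995560) and *Grin2b* (chr6:135713233-136173511) are far longer genes, with 17933 and 24842 exonic bases, mostly outside the coding sequence. *Grin2c* lies at chr11:115249169-115267243, *Grin2d* at chr7:45831883-45878378, *Grin3a* at chr4:49661611-49845744 and *Srr* at chr11:74906359-74925948. Exons of *Srr* share 27.2% of their bases with *Tsr1* on the other strand, exons of *Grin1* share 13.5% with the antisense gene *Grin1os*, and those of *Grin2d* share 9.66% with the antisense gene *Gm45441*. The strand setting of the counting is not given in the sources used here, so reads in these parts cannot be assigned to one strand.

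*Grin1*, which encodes the channel's obligatory subunit, had the highest level per length, with 58.0 ± 2.57 CPM per kb of exon (SD, n = 20 brains). *Grin2b*, a GluN2 subunit abundant in the forebrain, followed with 26.9 ± 2.10 CPM per kb, and then *Srr* with 23.2 ± 1.14 CPM per kb. The ranges of these last 2 overlapped, with *Grin2b* above *Srr* in 19 of 20 brains. *Grin2a*, the GluN2 subunit that gains importance in the adult brain, was at 14.8 ± 1.47 CPM per kb and *Grin2c*, best known from the cerebellum and from astrocytes, at 8.54 ± 0.638 CPM per kb. *Grin3a* and *Grin2d*, the latter known from interneurons and the diencephalon, were at 5.70 ± 0.601 and 5.23 ± 0.552 CPM per kb, and *Grin3a* was the higher in only 15 of 20 brains. *Chrna7* was lowest on this length, with 3.01 ± 0.423 CPM per kb.

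**Figure D1:**
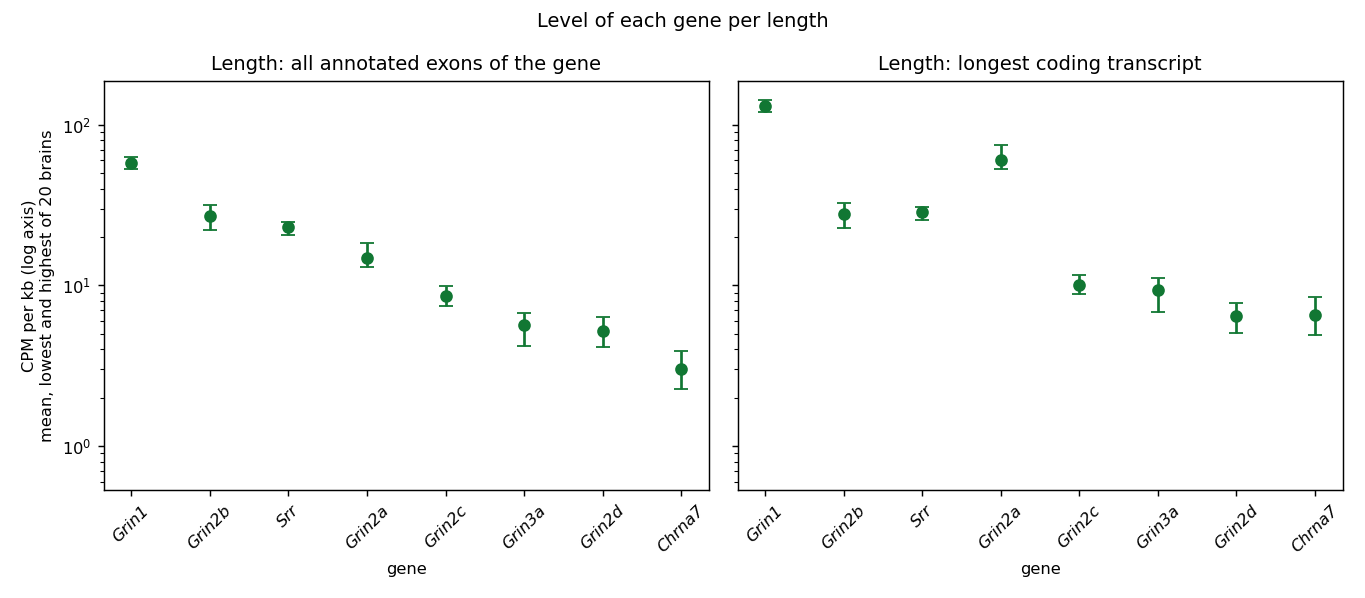
Level of each gene in CPM per kb on a log axis, with the point at the mean and the bars at the lowest and highest of 20 brains; the left panel divides by all annotated exons of the gene and the right panel by the transcript with the longest coding sequence. *Grin1* is highest in both panels, while *Grin2a* stands below *Grin2b* on the left (14.8 and 26.9 CPM per kb) and above it on the right (60.4 and 27.8 CPM per kb). The *Grin2a* transcript used on the right has almost no bases outside its coding sequence.

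The order of the genes below *Grin1* depended on the length used, an alternative chosen after seeing the data. Divided by the transcript with the longest coding sequence, *Grin2a* was at 60.4 ± 6.00 CPM per kb and *Grin2b* at 27.8 ± 2.17 CPM per kb, since the *Grin2a* transcript has 4395 bases and the *Grin2b* transcript 24060. Of these, 4392 and 4446 are coding bases. The *Grin2a* transcript thus leaves out nearly all of its gene's exonic bases outside the coding sequence, while reads there still count. These 2 lengths differ in kind and cannot decide which subunit is higher. *Grin2c* and *Grin2d* kept the lower levels of the GluN2 subunits, at 10.1 and 6.42 CPM per kb. On this length *Srr*, at 28.5 CPM per kb, had a mean above that of *Grin2b*. *Chrna7*, at 6.52 CPM per kb, had a mean above that of *Grin2d*, which was then the lowest. Over all exons, *Grin2b* made up 48.1% ± 1.90 of the summed GluN2 level in C57BL/6 and 48.8% ± 1.61 in *Winnie* brains (SD, n = 10 each), *Grin2a* 26.7% ± 0.987 and 26.6% ± 2.45, *Grin2c* 15.8% ± 1.46 and 15.1% ± 1.63, and *Grin2d* 9.45% ± 0.960 and 9.46% ± 1.38. The makeup of the GluN2 pool was thus within the spread between brains in each genotype.

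Genotypes were compared to ask whether the receptors on which kynurenine metabolites act differ in transcript level in the brains of mice with colitis. Fold changes are on the log2(CPM + 0.5) scale. At a false discovery rate (FDR) under 0.05 in limma across all genes, 0 of the 8 genes passed, where 2.52% of all genes did, 1.52% higher and 1.01% lower in *Winnie*. At the threshold of the study, an FDR under 0.001 with a change of 1.5-fold or more, 0 of the 8 passed and 0% of all genes. At an unadjusted p under 0.05, 2 of the 8 genes passed, *Chrna7* and *Grin1*, where 17.6% of all genes did, and DESeq2 and edgeR, run on the whole reads recovered from the CPM values, and a median-ratio scaling each put *Chrna7* alone of the 8 past the FDR of 0.05. With *Ddx3y*, which follows the sex of each brain, as a covariate, 0 of the 8 passed and *Chrna7* had an FDR of 0.0542 in limma. The median log2 fold change was 0.05 over the 8 genes and 0.00 over all genes. The 95% confidence interval of each of the 8 fold changes lay below the fold threshold of the study.

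**Figure D2:**
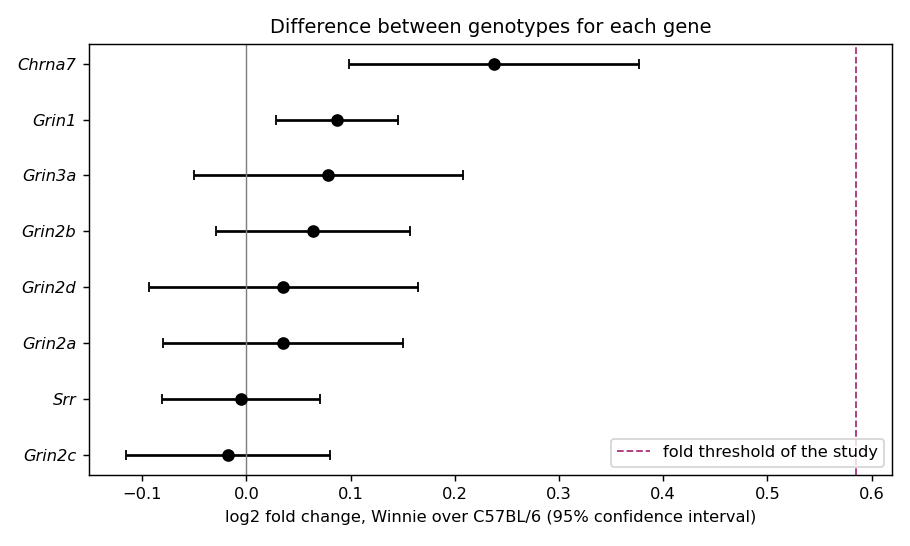
Log2 fold change of each gene in *Winnie* over C57BL/6 brains, with 95% confidence intervals from limma and the fold threshold of the study (1.5-fold) as a dashed line. The intervals of *Chrna7* (0.10 to 0.38) and *Grin1* (0.03 to 0.15) lie above 0, those of the other 6 genes span 0, and none reaches the dashed line.

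*Chrna7*, the subunit of a calcium-permeable nicotinic receptor that assembles from copies of this one protein, had the largest difference of the 8. Its level ranged from 10.3 to 14.6 CPM around a median of 12.1 CPM in C57BL/6 brains, and from 12.3 to 17.7 CPM around a median of 14.4 CPM in *Winnie* brains. All 10 *Winnie* brains lay above the C57BL/6 median, 5 lay above the highest C57BL/6 brain, and 6 C57BL/6 brains lay below the lowest *Winnie* brain, so the groups overlapped in part. The mean was 12.4 ± 1.51 CPM in C57BL/6 and 14.7 ± 1.57 CPM in *Winnie* (SD, n = 10 each), a log2 fold change of 0.24 (SE 0.068, 95% confidence interval 0.10 to 0.38, 1.18-fold) with p = 0.00152 and an FDR of 0.0538 in limma. The reads behind each value numbered 196 to 330, for which counting error alone gives a coefficient of variation of 6.28%, against 12.2% between C57BL/6 and 10.7% between *Winnie* brains.

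The call of *Chrna7* sat at the threshold. Its FDR was 0.0349 after median-ratio scaling, 0.0358 in edgeR and 0.0133 in DESeq2, and it was under 0.05 without C57BL/6 replicate 1, 2, 9 or 10 (0.0451, 0.0294, 0.0430 and 0.0482) and without *Winnie* replicate 5 (0.0330). Over all 20 brains left out in turn the FDR ranged from 0.0294 to 0.118 and the log2 fold change from 0.21 to 0.26. With the levels of cortical and hippocampal, striatal and thalamic markers as covariates, an alternative chosen after seeing the data, the log2 fold change was 0.16 with an FDR of 0.182 in limma.

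**Figure D3:**
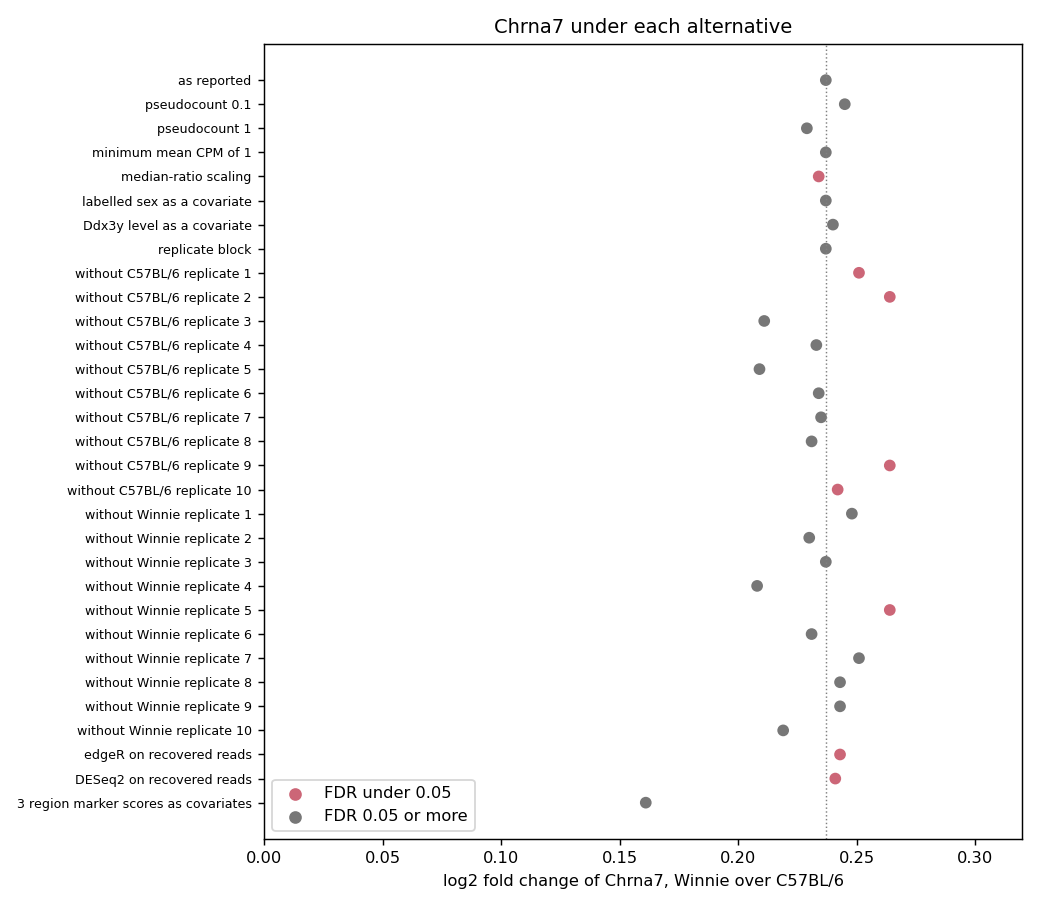
Log2 fold change of *Chrna7* in *Winnie* over C57BL/6 brains as reported (dotted line) and under each of the 30 alternatives, coloured by whether the FDR was under 0.05. All values lie above 0, between 0.16 with the region markers as covariates and 0.26, and 8 of the 30 have an FDR under 0.05.

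*Grin1* had a small difference in the same direction. Its level ranged from 513 to 577 CPM around a median of 547 CPM in C57BL/6 brains, and from 552 to 613 CPM around a median of 578 CPM in *Winnie* brains. Every *Winnie* brain lay above the C57BL/6 median and 5 lay above the highest C57BL/6 brain, which was replicate 3 at 577 CPM, while 7 C57BL/6 brains lay below the lowest *Winnie* brain. The mean was 546 ± 16.6 CPM in C57BL/6 and 580 ± 19.8 CPM in *Winnie*, a log2 fold change of 0.09 (SE 0.029, 95% confidence interval 0.03 to 0.15, 1.06-fold) with p = 0.00498 and an FDR of 0.0930 in limma. Its FDR was between 0.0540 and 0.190 in all 30 alternatives.

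**Figure D4:**
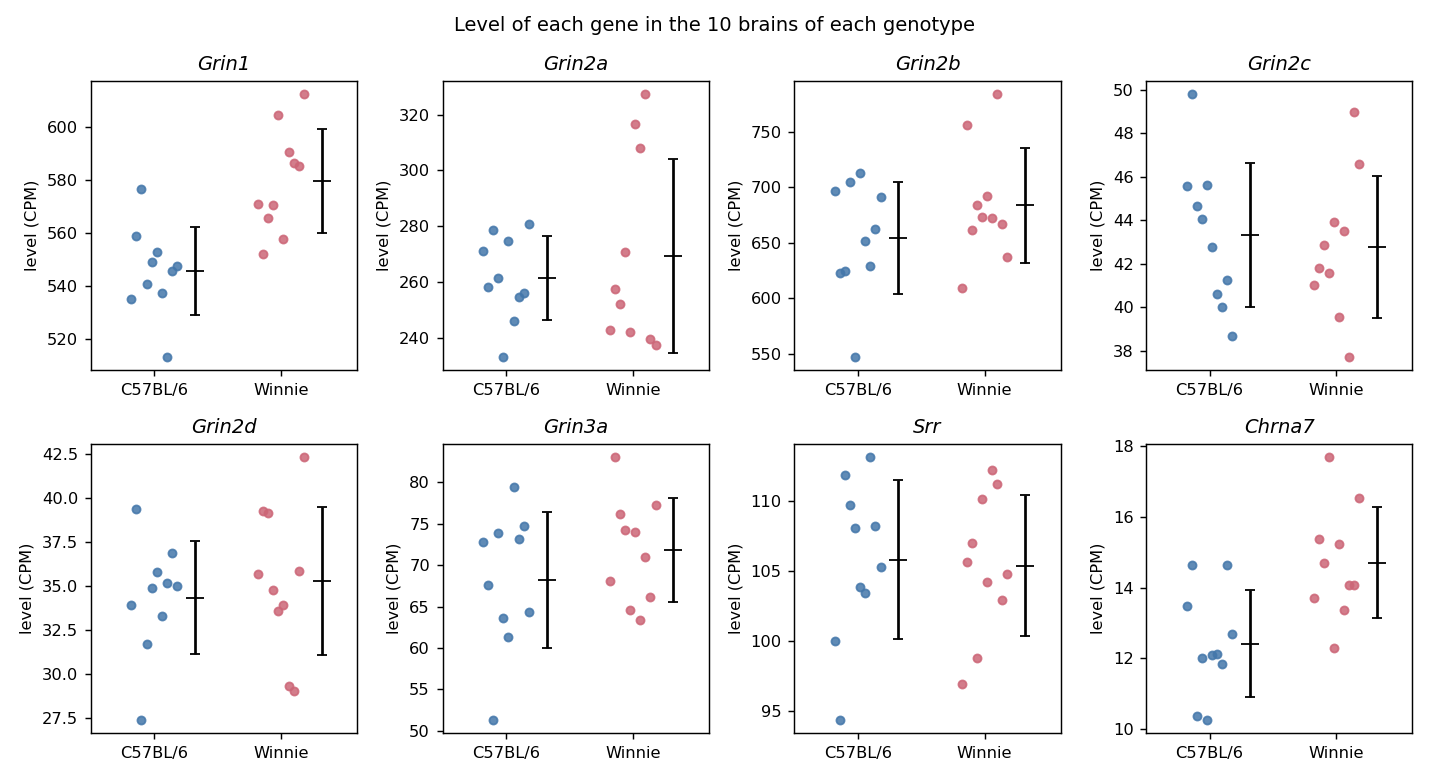
Level of each gene in CPM in the 10 C57BL/6 (blue) and 10 *Winnie* (red) brains, 1 point per brain, with the mean and SD in black; each panel has its own axis, which does not start at 0. In *Chrna7* and *Grin1* 5 *Winnie* points lie above the highest C57BL/6 point, and in *Grin2a* 3 *Winnie* points stand apart at 308 to 327 CPM.

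Among the GluN2 subunits, *Grin2b* differed most between the means and *Grin2a* varied most within 1 genotype. *Grin2b* ranged from 547 to 713 CPM (median 657 CPM) in C57BL/6 and from 609 to 784 CPM (median 673 CPM) in *Winnie* brains, with 8 of 10 *Winnie* brains above the C57BL/6 median. Its log2 fold change was 0.06 (SE 0.045, 95% confidence interval -0.03 to 0.16) with an FDR of 0.494 in limma. The 2 highest brains of all were *Winnie* replicates 8 and 2, at 784 and 757 CPM, and the ranges overlapped over most of their length.

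*Grin2a* ranged from 233 to 281 CPM (median 260 CPM) in C57BL/6 and from 238 to 327 CPM (median 255 CPM) in *Winnie* brains. *Winnie* replicates 6, 7 and 8 were at 317, 308 and 327 CPM, above all C57BL/6 brains, while the other 7 *Winnie* brains lay between 238 and 271 CPM. The coefficient of variation was 5.79% in C57BL/6 and 12.9% in *Winnie*, where counting error gives 1.41%. The log2 fold change was 0.04 (SE 0.056, 95% confidence interval -0.08 to 0.15) with an FDR of 0.799 in limma, and it was 0.0029 without *Winnie* replicate 8. The same 3 brains had striatal marker scores of 4.42, 4.48 and 4.30 (mean log2(CPM + 0.5) of 10 genes). The highest striatal score was 6.335, in C57BL/6 replicate 5. C57BL/6 replicate 1 and *Winnie* replicate 3 also had low striatal scores, 4.435 and 4.531, with *Grin2a* at 271 and 252 CPM. Choroid plexus marker scores of the 3 brains, 3.575, 3.521 and 3.948, were the lowest of all brains. The part of tissue composition in the *Grin2a* level of these 3 brains was not tested.

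*Grin2c* and *Grin2d* were the less abundant GluN2 subunits and their groups overlapped almost fully. *Grin2c* ranged from 38.7 to 49.8 CPM (median 43.4 CPM) in C57BL/6 and from 37.7 to 49.0 CPM (median 42.3 CPM) in *Winnie*, with a log2 fold change of -0.02 (SE 0.048, 95% confidence interval -0.12 to 0.08) and an FDR of 0.891 in limma. *Grin2d* ranged from 27.4 to 39.4 CPM (median 35.0 CPM) in C57BL/6 and from 29.1 to 42.4 CPM (median 35.3 CPM) in *Winnie*, with a log2 fold change of 0.04 (SE 0.063, 95% confidence interval -0.09 to 0.16) and an FDR of 0.824 in limma. That of *Grin2d* was -0.05 with the 3 region marker scores as covariates and 0.00053 without C57BL/6 replicate 3. The *Winnie* brains lowest in *Grin2d*, replicates 8 and 7 at 29.1 and 29.4 CPM, were 2 of the 3 highest in *Grin2a*.

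*Grin3a*, whose subunit lowers the calcium permeability of the channel, ranged from 51.3 to 79.4 CPM (median 70.2 CPM) in C57BL/6 and from 63.3 to 83.1 CPM (median 72.5 CPM) in *Winnie* brains. C57BL/6 replicate 3 was the lowest at 51.3 CPM, and 6 of 10 *Winnie* brains lay above the C57BL/6 median. The log2 fold change was 0.08 (SE 0.063, 95% confidence interval -0.05 to 0.21) with an FDR of 0.554 in limma, and it was -0.0047 with the 3 region marker scores as covariates and 0.03 without C57BL/6 replicate 3. The related *Grin3b*, which was not among the 8, was at 0.427 ± 0.136 CPM in C57BL/6 and 0.435 ± 0.160 CPM in *Winnie*, from 3 to 12 reads per brain.

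*Srr* was the most alike of the 8 between the genotypes. It ranged from 94.4 to 113 CPM (median 107 CPM) in C57BL/6 and from 97.0 to 112 CPM (median 105 CPM) in *Winnie* brains. The mean was 106 ± 5.67 CPM in C57BL/6 and 105 ± 5.03 CPM in *Winnie*, a log2 fold change of -0.01 (SE 0.037, 95% confidence interval -0.08 to 0.07) with an FDR of 0.965 in limma. Differences of more than 1.05-fold up or 0.946-fold down lay outside this interval.

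Ratios within each brain compared the subunits with each other, since a ratio does not depend on library scaling. For 6 ratios a two-sided permutation test with 100000 resamples was run and adjusted over the 6, and 0 passed an adjusted p of 0.05. The log2 ratio of *Srr* to *Grin1* was -2.36 ± 0.0968 in C57BL/6 and -2.45 ± 0.0684 in *Winnie* (SD, n = 10 each), a difference of -0.09 (SE 0.037) with permutation p = 0.0215 and an adjusted p of 0.129, and 0 of 10 *Winnie* brains lay above the C57BL/6 median. Without C57BL/6 replicate 2, the lowest of its group at -2.56, the difference was -0.11 with an adjusted permutation p of 0.00662. This was the 1 fit with a brain left out that passed 0.05. The highest adjusted permutation p with 1 brain left out was 0.271. The log2 ratio of *Grin1* to the summed GluN2 subunits per kb was 0.04 ± 0.0795 in C57BL/6 and 0.09 ± 0.0976 in *Winnie*, a difference of 0.04 (SE 0.040) with an adjusted permutation p of 0.670.

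The ratios among the GluN2 subunits differed by less than their spread. The log2 ratio of *Grin2a* to *Grin2b*, which rises during development as the receptor matures, was -1.32 ± 0.0836 in C57BL/6 and -1.35 ± 0.144 in *Winnie*, with an adjusted permutation p of 0.887. *Grin2c* to *Grin2b* was -3.90 ± 0.182 and -3.98 ± 0.187, and *Grin2d* to *Grin2b* was -4.23 ± 0.182 and -4.26 ± 0.234, with adjusted permutation p-values of 0.670 and 0.918. *Grin3a* to *Grin1* was -3.00 ± 0.218 and -3.01 ± 0.155, with an adjusted permutation p of 0.920.

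The genes around these receptors were read from 8 lists, in which 0 of 95 measured genes passed an FDR of 0.05 in limma, where 2.52% of all genes did. Of the 11 subunits of AMPA, kainate and delta receptors, the other glutamate-gated channels, 10 had values above 0 and 1 below, with a median log2 fold change of 0.04. Over all 17211 genes, 8774 values were above 0 and 8437 below. *Gria3*, an AMPA receptor subunit, was at 212 ± 9.18 CPM in C57BL/6 and 230 ± 14.9 CPM in *Winnie*, a log2 fold change of 0.12 (SE 0.037) with an FDR of 0.0809 in limma. It passed 0.05 in DESeq2 (0.0305), with the 3 region marker scores as covariates (0.0365) and without *Winnie* replicate 5 (0.0420). *Gria1* had a log2 fold change of 0.07 and an FDR of 0.306. Among 7 of 8 metabotropic glutamate receptors measured, the median was 0.01, and *Grm5* and *Grm7* had log2 fold changes of 0.07 each with FDRs of 0.340 and 0.358.

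In the 26 scaffold and signalling genes of the NMDA receptor complex the median log2 fold change was 0.00, with 14 values above 0 and 12 below. *Ppp3ca*, a catalytic subunit of the phosphatase calcineurin, had a log2 fold change of -0.11 (FDR 0.181 in limma) and the kinase *Camk2d* 0.12 (FDR 0.206). In 13 genes of glutamate release and clearance the median was -0.02, and *Got1* and *Glul*, the latter encoding glutamine synthetase, were at -0.05 and 0.05 with FDRs of 0.515 and 0.535.

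The 16 genes of glycine and D-serine handling had a median log2 fold change of 0.02, with 8 above and 8 below 0. *Slc38a2*, a transporter of small neutral amino acids, was at 134 ± 15.3 CPM in C57BL/6 and 159 ± 18.8 CPM in *Winnie*, a log2 fold change of 0.24 (SE 0.071) with an FDR of 0.0707 in limma, and it passed 0.05 in 7 alternatives, among them DESeq2 at 0.0269. *Shmt1*, which interconverts serine and glycine, had a log2 fold change of 0.25 with an FDR of 0.168, at low levels of 1.30 CPM in C57BL/6 and 1.63 CPM in *Winnie*. Of 13 genes of the kynurenine route 6 were found by name, all at low levels. Their summed level was 4.64 to 9.28 CPM in C57BL/6 and 4.32 to 7.96 CPM in *Winnie*. The other 7 were not searched under other names, so their levels are not known here. *Afmid*, which hydrolyses formylkynurenine, had a log2 fold change of 0.27 (FDR 0.193 in limma) and *Ido1*, which starts the route, -0.48 (FDR 0.402).

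The other nicotinic subunits had values above 0, the sign of *Chrna7*, in 9 of 10 measured genes, where 8774 of all 17211 genes did. The median log2 fold change of the 10 was 0.09, and 0 passed the test. *Chrnb4* was at 2.98 ± 0.696 CPM in C57BL/6 and 3.65 ± 0.728 CPM in *Winnie*, a log2 fold change of 0.26 (SE 0.115) with an FDR of 0.227 in limma. The muscle-type subunit *Chrna1*, at low levels of 0.566 CPM in C57BL/6 and 0.761 CPM in *Winnie*, had 0.22 with an FDR of 0.365. The 6 measured genes of nicotinic receptor assembly and modulation had a median of -0.01, with *Ly6e* at -0.11 (FDR 0.250) and *Lynx1*, which restrains nicotinic receptors, at -0.04 (FDR 0.589).

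Within the *Winnie* brains, where *Xist* and *Ddx3y* went with the labels, 5 labelled female and 5 labelled male were compared. At an FDR under 0.05 in limma 0 of the 8 genes passed, where 0.116% of all genes did, and at an unadjusted p under 0.05 it was also 0 of 8, where 9.81% of all genes passed. *Grin2a* had the smallest p, with means of 253 CPM in females and 286 CPM in males, a log2 difference of -0.16 (SE 0.085) and an FDR of 0.572. The 3 brains high in *Grin2a* were all labelled male.

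Levels of the 8 genes were then set beside 12 lists of region and cell type markers, each read as the mean log2(CPM + 0.5) of its genes, over all 20 brains. Of the 96 pairs, 5 passed an adjusted permutation p of 0.05 by Pearson's r, and 0 passed by Spearman's rho, whose smallest adjusted permutation p was 0.0509. After median-ratio scaling of the libraries, an alternative chosen after seeing the data, 0 of these 5 passed. *Grin3a* had the strongest relation, to cortical and hippocampal markers (r = -0.744, permutation p = 0.00026, adjusted 0.0250, rho = -0.710). Without the 2 brains farthest from the median marker score, C57BL/6 replicates 3 and 6, r was -0.473, and within genotypes it was -0.783 in C57BL/6 and -0.598 in *Winnie*.

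*Grin2d* varied with thalamic markers (r = 0.665, permutation p = 0.00167, adjusted 0.0484, rho = 0.656), with r of 0.568 in C57BL/6, 0.727 in *Winnie* and 0.532 without the 2 farthest brains. It also varied against cortical and hippocampal markers (r = -0.637, adjusted permutation p = 0.0484, rho = -0.499), with r of -0.509 and -0.842 within genotypes and -0.610 without the 2 farthest brains. *Grin2a* varied against striatal markers (r = -0.637, permutation p = 0.00242, adjusted 0.0484, rho = -0.668), with r of -0.551 in C57BL/6, -0.727 in *Winnie* and -0.552 without the 2 farthest brains.

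*Chrna7* varied with astrocyte markers (r = 0.679, permutation p = 0.00114, adjusted 0.0484, rho = 0.647), with r of 0.761 in C57BL/6, 0.778 in *Winnie* and 0.552 without C57BL/6 replicates 3 and 4. The summed level of the 8 astrocyte markers ranged from 1523 to 1930 CPM in C57BL/6 and from 1625 to 1840 CPM in *Winnie* brains, with 0 of 8 past an FDR of 0.05 between genotypes, 4 values above and 4 below 0 and none of them at 0 CPM in any brain. The summed level of the 8 thalamic markers ranged from 286 to 403 CPM in C57BL/6 and from 328 to 547 CPM in *Winnie*, with 0 of 8 past the test and 7 values above 0. The part of these tissue markers in the *Chrna7* difference was not tested beyond the fit with region scores. After median-ratio scaling the relations of *Grin3a* and *Grin2d* to cortical and hippocampal markers had r of -0.652 and -0.488, with adjusted permutation p-values of 0.0502 and 0.147. *Grin2d* with the thalamus, *Grin2a* and *Chrna7* then had r of 0.653, -0.534 and 0.576, with adjusted permutation p-values of 0.0502, 0.120 and 0.0916.

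**Figure D5:**
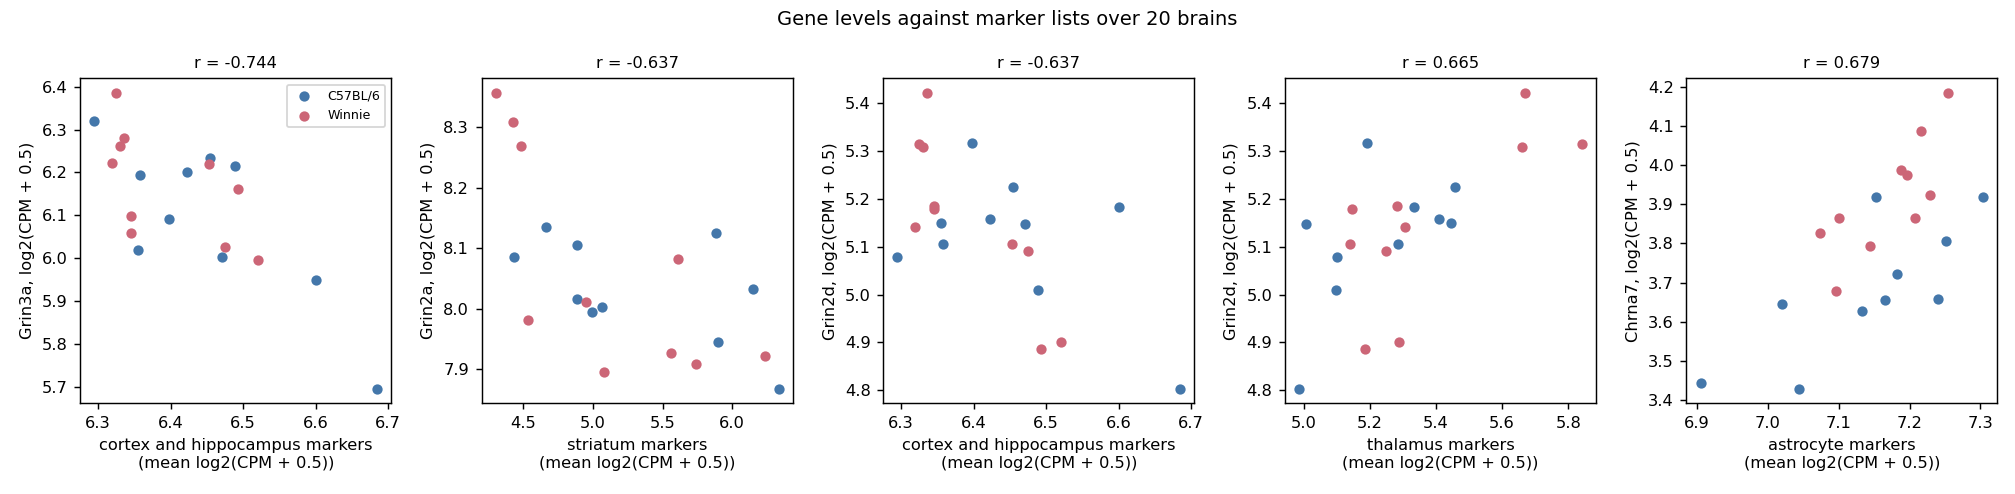
Log2(CPM + 0.5) of a gene against the mean log2(CPM + 0.5) of a marker list in 20 brains, 1 point per brain, blue for C57BL/6 and red for *Winnie*, for the 5 pairs with an adjusted permutation p under 0.05. *Grin3a*, *Grin2a* and *Grin2d* fall as the cortical and hippocampal or striatal markers rise (r = -0.744, -0.637 and -0.637), and *Grin2d* and *Chrna7* rise with thalamic and astrocyte markers (r = 0.665 and 0.679).

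For the other genes the strongest relation did not pass the adjustment. It was to astrocyte markers for *Srr* (r = -0.605, rho = -0.671, adjusted permutation p = 0.0614), to microglial markers for *Grin2c* (r = 0.586, rho = 0.564, adjusted permutation p = 0.0672) and for *Grin2b* (r = -0.520, rho = -0.516, adjusted permutation p = 0.0905), and to neuronal markers for *Grin1* (r = -0.507, rho = -0.406, adjusted permutation p = 0.104). Within C57BL/6 and *Winnie* brains r was -0.803 and -0.240 for *Srr*, 0.357 and 0.808 for *Grin2c*, -0.601 and -0.431 for *Grin2b*, and -0.258 and -0.503 for *Grin1*. Without the 2 farthest brains it was -0.553, 0.463, -0.572 and -0.322 in the same order.

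Between the 8 genes themselves, 0 of 28 pairs passed an adjusted permutation p of 0.05. The strongest were *Grin3a* with *Chrna7* (r = 0.615, rho = 0.603), *Grin2a* with *Grin2b* (r = 0.589, rho = 0.586) and *Grin2a* against *Grin2d* (r = -0.584, rho = -0.483), each with permutation p between 0.00386 and 0.00631 and an adjusted permutation p of 0.0589. Within C57BL/6 and *Winnie* brains these were 0.533 and 0.727, 0.694 and 0.591, and -0.297 and -0.751. Without the 2 brains farthest from the median of the first gene they were 0.449, 0.442 and -0.539.

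The genes whose pattern was most like each of the 8 were taken over 20 brains, after subtraction of the genotype means, from 15158 genes at a mean of 1 CPM or more. These correlations are the highest of many and are descriptions only, and their source was not tested. *Grin2a* was most like *Nos1ap* (r = 0.904), *Epha4* and *Gnaq*, and *Grin3a* most like the serotonin receptor gene *Htr2c* (r = 0.904), *Gab2* and *Usp29*. *Chrna7* was most like the receptor kinase gene *Alk* (r = 0.899), *Clcn5* and *Klhdc8a*, and *Grin2d* most like the glycine transporter gene *Slc6a9* (r = 0.897), *Susd2* and *Paqr6*. *Grin2b* was most like the potassium channel gene *Kcnma1* (r = 0.870), *Gm340* and *Zfp382*, and *Srr* most like *Polr2j* (r = 0.863), *Psmb2* and *Fam163b*. *Grin2c* and *Grin1* had the weaker likenesses, to *Zfand2b* (r = 0.812), *Cbx7* and *Crlf2*, and to *Ctdspl* (r = 0.791), *Gmeb2* and *Fastk*.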

How the data were processed

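Brain RNA from 20 mice was sequenced by the authors with paired reads of 100 bases. Per the labels and the study's methods, RNAsik 1.5.4 was run on GRCm38, with featureCounts for the gene counts. The values deposited by the authors are CPM, each gene's reads scaled to a common total per brain. The filter on low values is not given in the sources used here. Every deposited CPM value was within 0.1 of a whole number of reads (100% of the values up to 400 reads), so reads were recovered and used for edgeR 4.0.16 and DESeq2 1.42.0. These called 514 and 968 genes at an FDR under 0.05, where limma called 434.

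Samples were grouped by labelled genotype. log2(CPM + 0.5) of 17211 genes was compared with limma 3.58.1 in R 4.3.3 (trend, robust), with Benjamini-Hochberg FDR over all genes. The study's methods name edgeR, without a covariate, and their threshold was kept beside an FDR under 0.05. Ratios and correlations used permutation tests with 100000 resamples (Python 3.11.15, scipy 1.17.1). Nothing in the labels ties brains to litters, so p-values measure the spread between these mice. Levels per kb divide CPM by the exonic bases of GENCODE M21, which matched 17128 genes. Intervals of fold changes come from limma, and counting errors cover counting only. The scripts were tested on simulated data with 200 changed genes. At an FDR under 0.05 limma found 0.5% of those changed 1.1-fold, 49.5% at 1.2-fold and 90% at 1.5-fold. Changes of 1.1-fold were thus mostly missed there.

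The 8 genes, the lists and the tests were chosen with earlier results of these data known. Named were the 8 genes, from each list the genes past an FDR of 0.05 or otherwise the 2 with the smallest p, 3 genes most like each of the 8, and *Xist* and *Ddx3y*. *Grin3b*, *Tsr1*, *Grin1os*, *Gm45441*, *Gabra6*, *Pcp2*, *Fat2*, *Zic1*, *Zic2* and *Cbln1* were named after their values were seen. Hindbrain markers were not analysed here. Genes of the lists were matched by name only, so a gene listed under another name counts as not measured. The coding stretch of 1 subunit is not reported here. Other settings tried were median-ratio scaling, a pseudocount of 0.1 or 1, only genes at a mean CPM of 1 or more, labelled sex or *Ddx3y* as a covariate, a replicate block, each brain left out, edgeR and DESeq2. Chosen after seeing the data were 3 region marker scores as covariates, another transcript length, and other pseudocounts and scaling for the correlations and the comparison of the sexes.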

Additional observations from a re-analysis of the deposited data

How the results depend on the processing

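The 8 genes were refitted under 30 alternatives. *Grin1*, *Grin2a* and *Grin2b* kept their direction and stayed above an FDR of 0.05 in all 30. *Chrna7* kept its direction in all 30 and was under 0.05 with median-ratio scaling (log2 fold change 0.23), edgeR (0.24) and DESeq2 (0.24), and each time it was the 1 gene of the 8 that passed. Leaving out 1 brain gave *Chrna7* 0.21 to 0.26, and 0 or 1 of the 8 genes called. With the 3 region marker scores as covariates the log2 fold changes of *Grin2d*, *Grin3a* and *Srr* were -0.0524, -0.0047 and 0.0101, against 0.04, 0.08 and -0.01. Leaving out 1 brain gave *Grin1* 0.08 to 0.10, *Grin2a* 0.0029 (without *Winnie* replicate 8) to 0.05, *Grin2b* 0.04 (without C57BL/6 replicate 5) to 0.08, *Grin2d* 0.00053 and *Grin3a* 0.03 (both without C57BL/6 replicate 3) to 0.07 and 0.10, *Grin2c* -0.0401 to 0.0044 and *Srr* -0.023 to 0.0080, and gave the log2 ratios *Grin2d* to *Grin2b* -0.0689 to 0.0239, *Grin3a* to *Grin1* -0.0615 to 0.0191 and *Srr* to *Grin1* -0.114 to -0.0714. No cause was tested.

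The count of genes at an FDR under 0.05 was 434. It was 227 with the replicate block and 968 in DESeq2, which left 2336 genes without an FDR. Leaving out 1 brain gave 169 to 694, with 1.5 times fewer or more without C57BL/6 replicates 3, 5, 8, 9 and 10 (238, 169, 250, 270 and 694) and *Winnie* replicates 2, 3, 7 and 8 (264, 241, 256 and 216). At the threshold of the study 0 genes passed, with 10 in DESeq2, 5 with the region scores and 0 to 2 with 1 brain left out. Replicate numbers showed no sign of pairing the brains: same-numbered brains correlated between -0.342 and 0.172 in their deviations and none correlated best with its own number. These correlations cannot exclude a pairing, since other differences between brains enter them too. With the replicate block 0 of the 8 genes passed (*Chrna7* FDR 0.0633 in limma), *Slc38a2* passed at 0.0421, and 0 of the 6 ratios did. Correlations with median-ratio scaling were -0.534 for *Grin2a* with striatal, 0.653 for *Grin2d* with thalamic, -0.652 for *Grin3a* with cortical and hippocampal and 0.576 for *Chrna7* with astrocyte markers, and 0 of the 5 relations that had passed the adjustment did so. Depth limits *Chrna7* and *Grin3b* most, with as few as 196 and 3 reads per brain.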

Other observations

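Of the 103 region and cell type markers measured, in 12 lists, 2 (1.94%) passed an FDR of 0.05 between the genotypes in limma, where 2.52% of all genes did. *Reln*, which encodes the extracellular protein reelin made by interneurons, was higher in *Winnie* brains, at 94.8 ± 9.70 CPM in C57BL/6 and 112 ± 10.98 CPM in *Winnie* (SD, n = 10 each), a log2 fold change of 0.24 with an FDR of 0.0281. It passed in 21 of 30 alternatives, with FDRs from 0.0056 to 0.0604, and did not pass with the 3 region marker scores as covariates (0.0570) or without C57BL/6 replicate 3, 5, 8 or 9 (0.0503 to 0.0604) or *Winnie* replicate 2, 3, 7 or 8 (0.0508 to 0.0567). *Cldn5*, a tight junction gene of brain endothelium, was lower in *Winnie*, at 16.4 ± 2.37 and 11.7 ± 1.70 CPM, a log2 fold change of -0.47 with an FDR of 0.00331, and it passed in all 30 alternatives. The other endothelial markers did not pass and 5 of the 8 had values above 0, with a median log2 fold change of 0.05 over the list and the highest value, 0.34, in *Slco1a4*. The other 7 interneuron markers did not pass. The striatal markers had values below 0 in 10 of 10 genes, with a median log2 fold change of -0.21 and a smallest FDR of 0.630. For the 10 region and cell type lists with no called gene, medians ran from -0.21 to 0.18.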
